A study of Mus musculus with 18 samples.

Results

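The genes described here build, regulate and move sterols and fatty acids in mouse bone marrow-derived macrophages (BMDMs). They were chosen by name, as 38 of the 20615 genes in the deposited table: 4 that control the SREBP transcription factors, 8 of the mevalonate and isoprenoid steps, 11 that make squalene or carry it to cholesterol, 5 of sterol transport, esterification and lysosomal release, 5 of fatty acid synthesis, and 5 of fatty acid elongation and desaturation. The study used bulk RNA-seq to compare BMDMs of C57BL/6 (B6) mice with those of C57BL/6.NOD-Aec1Aec2 mice, a Sjögren's syndrome-susceptible (SjSS) line that carries the NOD-derived Aec1 and Aec2 intervals on a B6 background. Each strain was left untreated (control), given apoptotic cells (ACs), or given CpG, an oligodeoxynucleotide that engages TLR9, with 3 samples in each of the 6 groups. All mice were female and 7 to 12 weeks old, and all marrow was grown for 7 days in medium with L929 cell supernatant, a source of M-CSF, before 300000 cells were plated per well. The ACs were thymocytes killed with dexamethasone, 5 for each BMDM, left on for 2 h and washed off, with a further 3 h before RNA collection by the labels. CpG was used at 1 µM for 6 h. The strain of the thymocytes given to each group was not stated in the sources used here. Thymi were taken from both strains, and the cytokine assay of the study used syngeneic thymocytes. If RNA-seq did the same, BMDM strain and thymocyte strain cannot be told apart in the AC comparisons between strains. All groups shared the L929 medium, the control groups included. The AC and CpG responses of a strain share its control samples and differ in length, so their values are set side by side and not compared.

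Cells make cholesterol from acetyl-CoA through mevalonate, farnesyl pyrophosphate and squalene. SREBP2, the product of Srebf2, switches on most of this pathway when sterol in the endoplasmic reticulum is low. Scap escorts it to the Golgi, and the Insig proteins hold Scap back when sterol is plentiful. A macrophage that engulfs a dead cell also takes in that cell's cholesterol and lipids, which the lysosome releases through Lipa, Npc1 and Npc2 and which can then be exported or stored as esters by Soat1.

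SREBPs act on promoters at sterol regulatory elements, often beside boxes for NF-Y and Sp1. The 250 bases before the RefSeq start of 4 members with large or opposed responses are therefore shown. They were read from RefSeq promoters on GRCm38.p6, the build of the deposited coordinates, 5′ to 3′ on the strand of the gene. Capitals mark the sterol element core TCACNCCAC, the NF-Y box CCAAT and the Sp1 box GGGCGG, searched on both strands, so that ATTGG marks the NF-Y box, and CCGCCC the Sp1 box, of the opposite strand. None of the marked matches overlap. The Hmgcs1 stretch is chr13:119690101-119690350 on the plus strand, that of Idi1 is chr13:8885356-8885605 (plus), that of Insig1 is chr5:28071162-28071411 (plus) and that of Cyp51 is chr5:4104698-4104947 (minus).
Hmgcs1: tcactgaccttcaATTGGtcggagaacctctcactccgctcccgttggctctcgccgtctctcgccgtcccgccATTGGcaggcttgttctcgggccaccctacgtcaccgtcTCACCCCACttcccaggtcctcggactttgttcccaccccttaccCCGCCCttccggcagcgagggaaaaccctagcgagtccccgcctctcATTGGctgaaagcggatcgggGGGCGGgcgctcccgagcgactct
Idi1: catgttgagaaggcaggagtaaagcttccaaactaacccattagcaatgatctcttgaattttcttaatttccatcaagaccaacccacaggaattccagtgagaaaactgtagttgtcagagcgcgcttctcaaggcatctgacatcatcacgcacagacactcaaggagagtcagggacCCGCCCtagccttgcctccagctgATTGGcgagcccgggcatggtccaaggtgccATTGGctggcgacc
Insig1: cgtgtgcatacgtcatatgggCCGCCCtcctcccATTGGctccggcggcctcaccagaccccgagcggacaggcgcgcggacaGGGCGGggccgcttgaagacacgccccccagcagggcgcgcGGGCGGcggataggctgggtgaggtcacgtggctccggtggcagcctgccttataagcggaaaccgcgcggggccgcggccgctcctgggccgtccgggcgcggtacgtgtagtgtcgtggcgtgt
Cyp51: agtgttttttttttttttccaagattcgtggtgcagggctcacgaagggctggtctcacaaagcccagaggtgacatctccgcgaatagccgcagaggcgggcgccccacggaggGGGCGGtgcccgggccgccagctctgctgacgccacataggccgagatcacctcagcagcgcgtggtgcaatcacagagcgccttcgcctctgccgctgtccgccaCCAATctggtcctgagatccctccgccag

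The Hmgcs1 promoter held 1 sterol element core, whose first base lay 137 bases before the start, with 3 NF-Y boxes and 2 Sp1 boxes. The Idi1 promoter held 2 NF-Y boxes, at 45 and 14 bases before the start, and 1 Sp1 box. Insig1 had 1 NF-Y box and 3 Sp1 boxes, and Cyp51 had 1 of each. These distances are from the RefSeq start. The deposited coordinates begin further upstream for Idi1 (8885501), Insig1 (28071363) and Cyp51 (4104747, minus strand). Part of each of these stretches therefore lies inside the deposited gene. That part holds all marked boxes of Idi1 and the NF-Y box of Cyp51. RefSeq promoters were found for 31 of the 38 members, in 38 windows of 300 bases that run to 50 bases past the start. The NF-Y box was in 68.4% of these windows and in 37.4% of all 32851 promoter windows of that length, and the Sp1 box in 73.7% against 35.7%. The strict sterol core was in 1 window of a member, which is 2.63%, and in 1.24% of all windows. These are letter matches only. Promoters of Fads1, Fdps, Scd2, Fdft1, Stard4, Npc1 and Sqle were not analysed here.

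The 18 libraries held 30688336 to 57139662 estimated counts each, and all 38 members were among the 15789 genes that passed the filter on low counts. Macrophage markers were high throughout, the sum of Adgre1, Csf1r, Cd68, Itgam, Fcgr1 and Mertk lying between 5818 and 9185 CPM, the count scaled to the size of its library, in every sample. The 13 thymocyte or T cell markers summed to 8.28 to 10.6 CPM in B6 control, 4.87 to 5.46 in B6 AC, 5.02 to 6.44 in B6 CpG, 10.5 to 12.1 in SjSS control, 14.3 to 18.7 in SjSS AC and 6.84 to 9.04 in SjSS CpG. Most of this was Cd4. The other 12 summed to 0.544 to 1.27 CPM in B6 control and 1.34 to 1.92 in B6 AC, and to 0.71 to 1.22 in SjSS control and 1.59 to 2.43 in SjSS AC, so they stood higher in both AC groups. In the CpG groups they summed to 0.726 to 1.59 CPM in B6 and 0.791 to 1.35 in SjSS. Trac, Rag1 and Dntt were at 0 in B6 control, Rag1 in SjSS control, Themis in SjSS AC, Rag1, Themis and Dntt in B6 CpG, and Rag1 in SjSS CpG. The 4 dendritic cell markers summed to 2.36 to 3.30 CPM in SjSS AC and to at most 1.57 CPM in the other groups, with Siglech at 0 in B6 control and Flt3 and Siglech at 0 in B6 AC. The 4 B cell markers summed to 8.97 to 26.5 CPM and the 2 neutrophil markers in the table to 1.84 to 11.6 CPM over all samples. The part of any of these cells in the results below was not tested.

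Levels differed widely within the module. In B6 control BMDMs, per kilobase of annotated exon, the lysosomal genes Lipa (acid lipase, 233 CPM per kb) and Npc2 (which hands cholesterol to Npc1, 184 CPM per kb) stood far above the rest. Soat1, which esterifies cholesterol, followed with 37.99 CPM per kb, then Acly, the source of cytosolic acetyl-CoA, with 32.98, Npc1 with 32.5 and Insig1 with 30.6. Among the enzymes of the mevalonate arm, Hmgcs1 was highest with 15.1 CPM per kb, and in the squalene arm Ebp with 9.97 and Cyp51 with 8.63. Elovl6 (0.521 CPM per kb) and Fads2 (0.15 CPM per kb) were the lowest members. Fads2 had at most 1.197 CPM in any sample and its fitted changes carried standard errors of 0.37 to 0.41 on the log2 scale, except in the interactions of strain and treatment, where they were larger. All other values below are CPM of a sample, scaled by the TMM method, or log2 fold changes ± standard error from edgeR with Benjamini-Hochberg adjusted p over all genes tested.

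**Figure D1:**
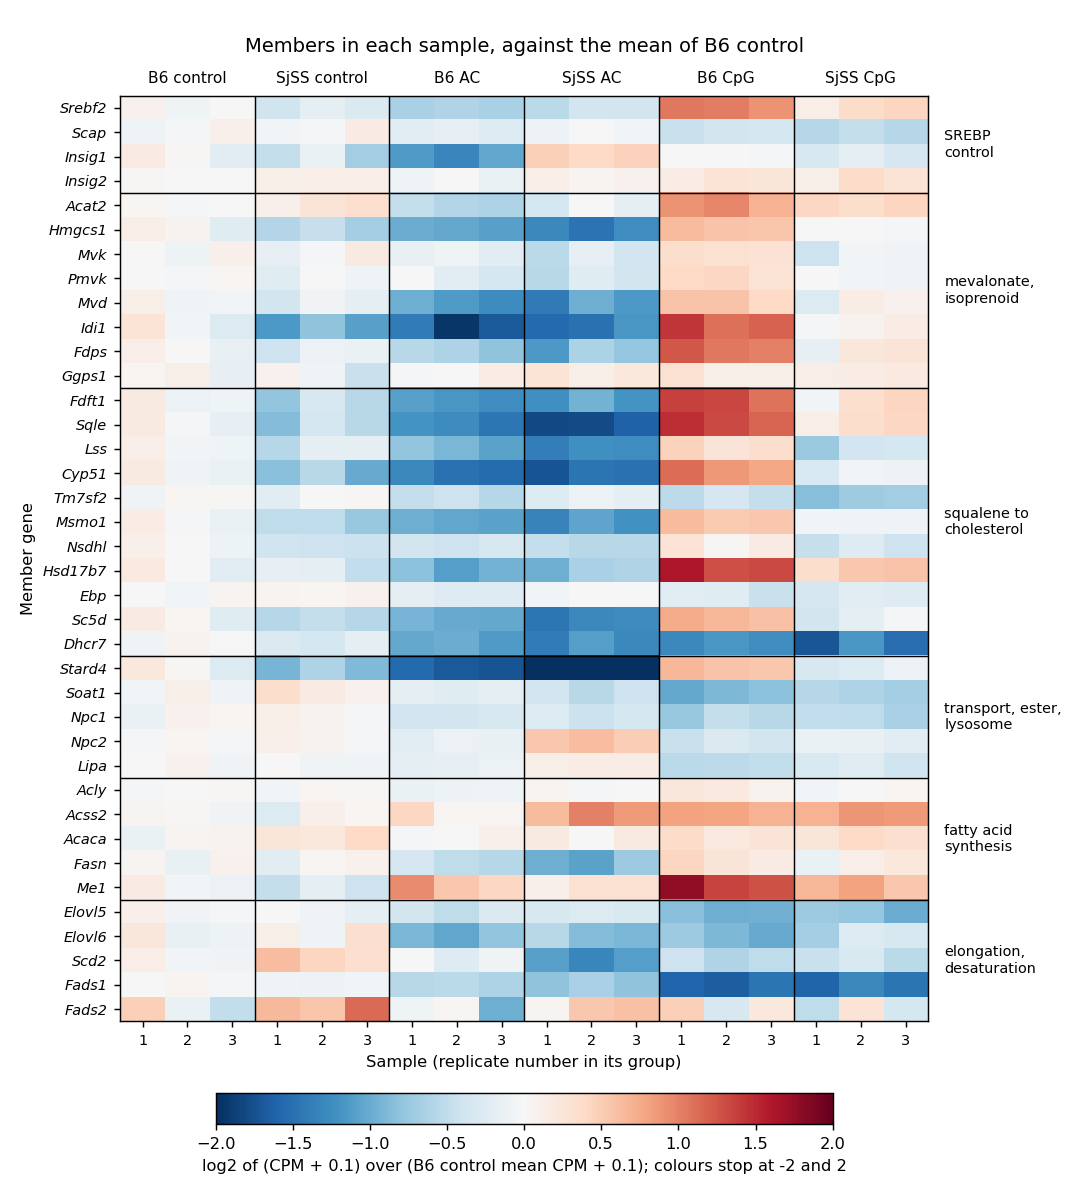
Heat map of the 38 members (rows, in 6 roles) in the 18 samples (columns, in 6 groups of 3), coloured by log2 of CPM over the mean of B6 control, red for higher and blue for lower. The enzymes from Hmgcs1 to Sc5d are mostly blue in both AC groups and red in B6 CpG, while Insig1 is blue in B6 AC and red in SjSS AC.

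With ACs, 28 of the 38 members fell in B6 BMDMs and 1, Me1, rose, where 18.3% of all genes tested were called lower and 20% higher. In SjSS BMDMs 23 members fell and 6 rose, against 29.4% and 28.6% of all genes. The median member changed by -0.48 on the log2 scale in B6 and by -0.41 in SjSS, beside 0.001 and -0.017 for all genes. Of the members, 20 fell in both strains, which is 20 of the 28 in B6 and 20 of the 23 in SjSS, and Insig1, Npc2 and Lipa fell in B6 and rose in SjSS. The B6 falls of Npc2 and Lipa were small, and their calls were lost without some single libraries, as given below. The share of all genes called in both strains was not analysed here, so these shared counts have no background beside them. A test of the difference between the responses (SjSS minus B6) called 11 members higher and 3 lower, against 19.6% and 18.3% of all genes. In bulk RNA, a change in the share of cells with a transcript and a change in its amount per cell cannot be told apart.

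Among the SREBP regulators, Insig1 was the member whose AC response differed most between the strains. It stood at 107, 96.7 and 80.8 CPM in the 3 B6 controls and at 42.97, 38.4 and 46.02 CPM in B6 AC. In SjSS it stood at 68.3, 86.1 and 58.2 CPM in the controls and at 131, 125 and 130.1 CPM with ACs. No AC sample overlapped the controls of its strain, and the direction was opposite in the 2 strains. Insig1 fell in B6 (log2 fold change -1.16 ± 0.11, adjusted p = 1.47e-07) and rose in SjSS (0.87 ± 0.11, adjusted p = 1.56e-06), and the responses differed by 2.02 ± 0.16, adjusted p = 8.19e-09. Srebf2, which encodes SREBP2 itself, was at 111, 98.4 and 104 CPM in B6 control and 67.00, 69.2 and 66.7 CPM in B6 AC, a fall of all 3 samples below the lowest control (log2 -0.63 ± 0.08, adjusted p = 2.45e-06). In SjSS the Srebf2 samples overlapped, with 79.7, 91.2 and 85.7 CPM in control and 71.8, 81.2 and 81.03 with ACs (log2 -0.13 ± 0.08, adjusted p = 0.151). With the replicate number as a block, the Srebf2 fall in SjSS was called (log2 -0.13, adjusted p = 0.0452). The Srebf2 responses differed by log2 0.50 ± 0.11, adjusted p = 0.00117. Scap, the escort of SREBP, changed by log2 -0.22 ± 0.07, adjusted p = 0.0109 in B6, a call lost without B6 control 3 (adjusted p = 0.0717) or B6 AC 3 (0.0509), and by -0.08 ± 0.07, adjusted p = 0.317 in SjSS. Insig2, the second retention protein, was not called in either strain (log2 -0.07 and -0.04).

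In the mevalonate arm, Hmgcs1, the enzyme that condenses acetyl-CoA units into HMG-CoA, stood at 76.3, 72.9 and 58.5 CPM in B6 control and 34.7, 34.1 and 32.6 CPM with ACs. In SjSS it was at 46.1, 50.4 and 43.3 CPM in control and 28.2, 24.9 and 29.3 CPM with ACs. AC and control samples were apart in both strains, with changes of log2 -1.03 ± 0.08, adjusted p = 1.40e-08 and -0.76 ± 0.08, adjusted p = 2.52e-07. The difference between the Hmgcs1 responses was not called. It was called without B6 control 3 (adjusted p = 0.00484), SjSS control 2 (0.0441) or SjSS AC 2 (0.0364), as a smaller fall in SjSS. Mvd, which makes isopentenyl pyrophosphate, fell in each (log2 -1.13 in B6 and -0.98 in SjSS). Idi1, which isomerizes that product, was at 27.03, 21.4 and 18.5 CPM in B6 control and 8.38, 5.73 and 6.91 CPM in B6 AC. In SjSS it began lower, at 9.97, 12.8 and 10.5 CPM, and reached 7.49, 7.84 and 9.89 CPM with ACs. With ACs the samples of the strains overlapped and were not called different (adjusted p = 0.178). Idi1 fell in B6 (log2 -1.67 ± 0.15, adjusted p = 7.24e-08) and in SjSS (-0.39 ± 0.16, adjusted p = 0.0407), with a difference between responses of 1.29 ± 0.22, adjusted p = 0.000117. The SjSS call of Idi1 was lost without SjSS control 2 (adjusted p = 0.172) or 3 (0.0535), SjSS AC 1 (0.146) or 2 (0.13), or B6 CpG 3 (0.0549). It was also lost with DESeq2 size factors within edgeR (0.0571).

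The other mevalonate and isoprenoid members moved less. Acat2, an acetyl-CoA thiolase, fell, with changes of log2 -0.57 ± 0.10 in B6 and -0.42 ± 0.10 in SjSS. Fdps, which makes farnesyl pyrophosphate, fell, with changes of log2 -0.66 ± 0.13 and -0.62 ± 0.13, and 26.7% of its exonic bases overlap another gene on the same strand. The kinases Mvk (log2 -0.15 ± 0.12 in B6, -0.36 ± 0.12, adjusted p = 0.0157 in SjSS) and Pmvk (-0.19 ± 0.10, -0.28 ± 0.10, adjusted p = 0.0231) were called in SjSS, but the difference between strains was not called for either (adjusted p = 0.37 and 0.664). The Mvk call was lost without SjSS control 3 (adjusted p = 0.108) or SjSS AC 1 (0.0862), and that of Pmvk without SjSS control 2 (0.0945) or 3 (0.0609) or SjSS AC 1 (0.126). With DESeq2 the Pmvk call was lost too (0.05003). Ggps1, which leads to geranylgeranyl pyrophosphate rather than to sterol, was the one member of the arm that rose, by log2 0.34 ± 0.11, adjusted p = 0.0117 in SjSS, and this call was lost without SjSS control 3 (0.0894).

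All 11 members that make squalene or carry it to cholesterol fell with ACs in B6, and 8 of the 11 fell in SjSS. Sqle, the squalene epoxidase, was at 28.5, 24.3 and 22.4 CPM in B6 control and 10.9, 10.4 and 9.09 CPM in B6 AC, and at 13.7, 19.5 and 17.04 CPM in SjSS control and 7.08, 7.19 and 8.08 CPM in SjSS AC. Every AC sample lay below every control of its strain, with changes of log2 -1.31 ± 0.12, adjusted p = 1.14e-07 and -1.16 ± 0.13, adjusted p = 2.89e-07. Cyp51, the lanosterol demethylase, was at 43.3, 36.2 and 34.7 CPM in B6 control and 15.6, 13.4 and 13.1 CPM in B6 AC. In SjSS, Cyp51 was at 21.2, 25.9 and 18.98 CPM in control and 11.4, 13.8 and 13.5 CPM with ACs. Its change was log2 -1.44 ± 0.12, adjusted p = 2.97e-08 in B6 and -0.76 ± 0.13, adjusted p = 3.40e-05 in SjSS, and the responses differed by 0.68 ± 0.17, adjusted p = 0.00484.

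The rest of that arm followed the same direction in B6. Fdft1, the squalene synthase, fell, with changes of log2 -1.18 ± 0.14 in B6 and -0.56 ± 0.14 in SjSS. Msmo1, the sterol C4-methyl oxidase, fell, with changes of log2 -1.03 ± 0.08 and -0.61 ± 0.08, and Hsd17b7, the 3-ketosteroid reductase of the pathway, with -0.96 ± 0.13 and -0.46 ± 0.13. For these 3 the SjSS response was the smaller, by log2 0.61 ± 0.20, adjusted p = 0.0201 for Fdft1, 0.42 ± 0.12, adjusted p = 0.0074 for Msmo1 and 0.51 ± 0.19, adjusted p = 0.0389 for Hsd17b7. The difference for Fdft1 was lost without B6 control 1 (0.059), SjSS control 1 (0.059) or SjSS AC 2 (0.0687), and 18.3% of its exonic bases overlap Ctsb on the other strand. That for Hsd17b7 was lost without any 1 of 7 libraries, namely B6 control 1 or 2, B6 AC 2 or 3, SjSS control 3, and SjSS AC 2 or 3, with adjusted p from 0.0623 to 0.115. Cyp51, Fdft1 and Msmo1 were already lower in SjSS than in B6 without treatment. With ACs neither they nor Hsd17b7 were called different between the strains, though Msmo1 was called lower without SjSS AC 2 (0.0406).

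Lss (lanosterol synthase), Sc5d (the C5-desaturase) and Dhcr7 (the reductase that yields cholesterol itself) fell in both strains, and the test between strains called none of them (adjusted p from 0.291 to 0.851). The log2 changes in B6 and SjSS were -0.93 and -0.98 for Lss, -0.99 and -0.79 for Sc5d, and -1.05 and -0.99 for Dhcr7. Tm7sf2, a sterol C14-reductase, Nsdhl, a C4-decarboxylase, and Ebp, the sterol isomerase, fell in B6 with changes of log2 -0.49, -0.37 and -0.24 and were not called in SjSS (-0.13, -0.11 and -0.07). Only Tm7sf2 of these 3 was called in the test between strains (log2 0.36 ± 0.13, adjusted p = 0.0392). That call was lost without any 1 of 7 libraries (B6 control 2 or 3, B6 AC 1 or 3, SjSS control 1, SjSS AC 2 or 3), with adjusted p from 0.0643 to 0.111, and 12.1% of the exonic bases of Tm7sf2 overlap Vps51 on the same strand. The call was also lost with no filter on low counts (0.0543).

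**Figure D2:**
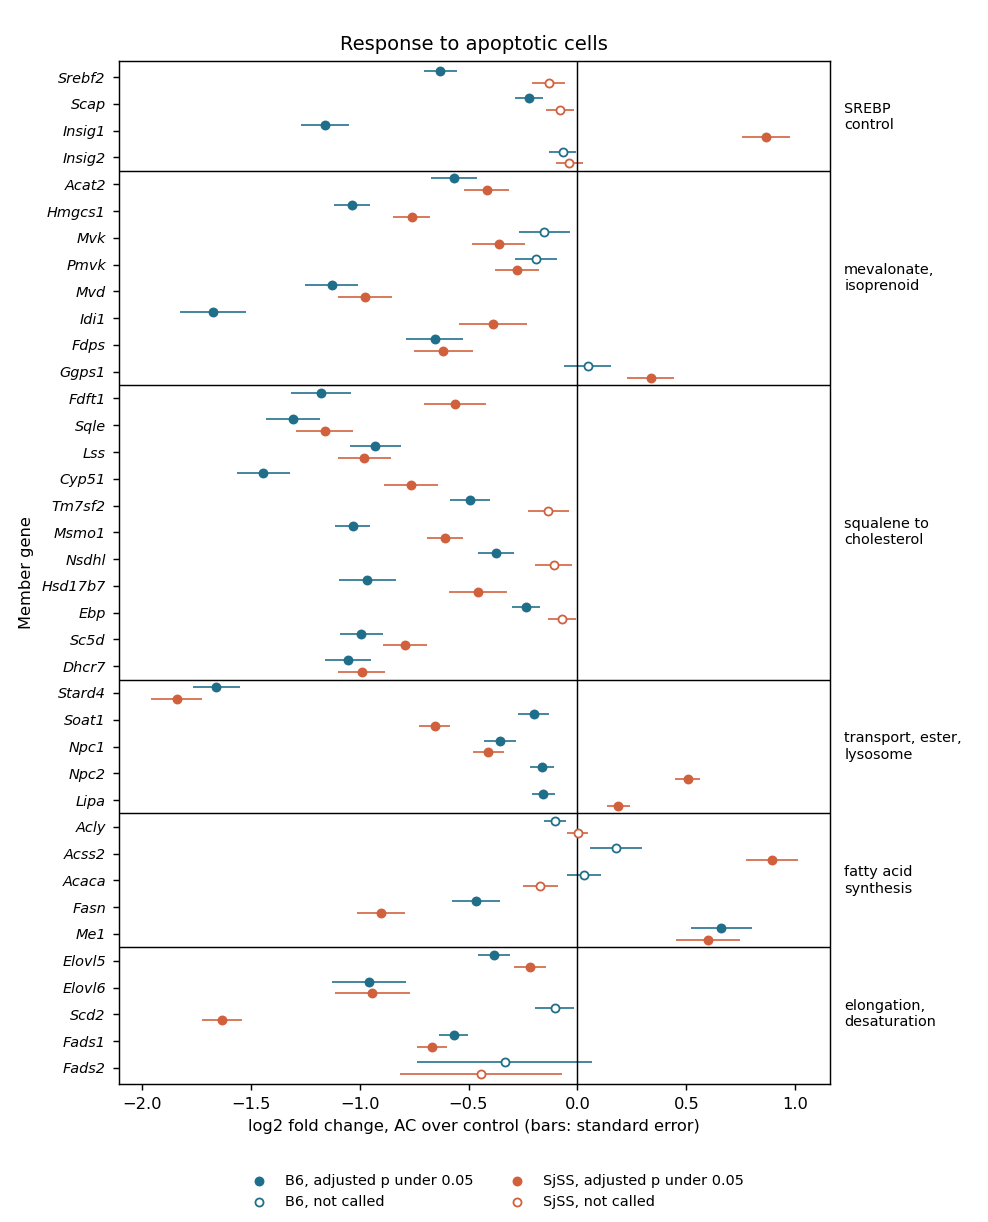
Log2 fold change of each member with ACs over control, in B6 (blue) and SjSS (orange), filled where the adjusted p was under 0.05, with standard errors as bars. Most points lie left of 0 in both strains, and Insig1, Npc2 and Lipa have B6 and SjSS points on opposite sides of it.

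Stard4, a cytosolic carrier of cholesterol that SREBP2 is known to induce, had the largest fall of any member in SjSS and, with Idi1, in B6. It was at 46.3, 40.6 and 33.3 CPM in B6 control and 13.6, 12.4 and 12.03 CPM in B6 AC, and at 20.9, 26.1 and 21.6 CPM in SjSS control and 5.61, 6.69 and 6.75 CPM in SjSS AC. All AC samples were below all controls, with changes of log2 -1.66 ± 0.11, adjusted p = 9.26e-10 and -1.84 ± 0.12, adjusted p = 9.56e-11 that were not called different between the strains (adjusted p = 0.41). The lysosomal genes did differ. Npc2 stood at 984, 1034 and 988 CPM in B6 control and 859.7, 923 and 903 CPM in B6 AC, a small change of log2 -0.16 ± 0.06, adjusted p = 0.0301. In SjSS it stood at 1076, 1051 and 971 CPM in control and 1454, 1540.0 and 1404 CPM with ACs, a rise of log2 0.51 ± 0.06, adjusted p = 3.14e-07. The SjSS AC samples were above every other sample of the study, and the responses differed by log2 0.67 ± 0.08, adjusted p = 2.42e-06.

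The fall of Npc2 in B6 was lost without B6 control 2 (adjusted p = 0.116) or 3 (0.0502) or B6 AC 1 (0.125) or 3 (0.0632). Lipa changed in the same sense, by log2 -0.16 ± 0.05 in B6 and 0.19 ± 0.05 in SjSS, with a difference of 0.34 ± 0.08, adjusted p = 0.00127. Its B6 call was lost without B6 control 2 (0.141), B6 AC 1 (0.076) or B6 AC 2 (0.0755). Soat1 fell further in SjSS (log2 -0.66 ± 0.07) than in B6 (-0.20 ± 0.07), by -0.45 ± 0.10, adjusted p = 0.00165. Its B6 call was lost without B6 control 2 (0.182) or any B6 AC sample (adjusted p from 0.0622 to 0.109). Npc1, the lysosomal membrane transporter, fell, with changes of log2 -0.36 and -0.41.

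Of the fatty acid synthesis genes, Fasn, the fatty acid synthase, fell in both strains and Me1, the malic enzyme that supplies NADPH, rose in both. Fasn was at 55.3, 48.4 and 56.8 CPM in B6 control and 42.6, 37.7 and 36.1 CPM in B6 AC, and at 45.96, 55.2 and 56.9 CPM in SjSS control and 27.03, 25.3 and 32.2 CPM in SjSS AC. The changes were log2 -0.47 ± 0.11 and -0.90 ± 0.11. The test between strains gave log2 -0.44 ± 0.15, adjusted p = 0.0326, and was lost without any 1 of 6 libraries (B6 control 2, B6 AC 1, SjSS control 2 or 3, SjSS AC 1 or 2) with adjusted p from 0.0712 to 0.0947. Me1 rose by log2 0.66 ± 0.14 in B6 and 0.60 ± 0.15 in SjSS. Acss2, which makes acetyl-CoA from acetate, stood at 6.59, 8.52 and 8.21 CPM in SjSS control and 12.5, 16.1 and 14.5 CPM in SjSS AC, where it rose (log2 0.89 ± 0.12, adjusted p = 2.79e-06). In B6 its samples overlapped (log2 0.18 ± 0.12), and the difference was 0.72 ± 0.17, adjusted p = 0.00235. Acly and Acaca, the acetyl-CoA carboxylase that commits carbon to fatty acids, were not called in either strain, with changes between log2 -0.17 and 0.03.

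Scd2, a stearoyl-CoA desaturase, fell in SjSS and was not called in B6. It was at 74.4, 65.5 and 64.7 CPM in B6 control and 68.5, 56.9 and 64.8 CPM in B6 AC, with overlapping samples (log2 -0.11 ± 0.09, adjusted p = 0.385). In SjSS, Scd2 went from 105, 91.9 and 86.5 CPM in control to 32.1, 27.6 and 31.7 CPM with ACs, a fall of every sample below every control (log2 -1.63 ± 0.09, adjusted p = 1.35e-11). The responses differed by log2 -1.53 ± 0.13, adjusted p = 1.92e-08. Reads of Scd2 can be shared with its close paralog Scd1, which was at 0.72 CPM in B6 control and 1.18 CPM in SjSS control. Fads1, the delta-5 desaturase, and the elongases Elovl5 and Elovl6 fell in both strains, with changes of log2 -0.57 and -0.67, -0.38 and -0.22, and -0.96 and -0.94. The call of Elovl5 in SjSS was lost without SjSS control 1 (0.082) or SjSS AC 1 (0.0558). Fads2 was not called with ACs.

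With CpG, 22 of the 38 members (57.9%) rose and 12 (31.6%) fell in B6 BMDMs. Of all genes, 28.1% and 29.8% were called higher and lower there, so the share that fell was near that of all genes. In SjSS BMDMs 14 (36.8%) rose and 13 (34.2%) fell, against 27.8% and 26.4% of all genes. The median member changed by 0.28 in B6 and 0.08 in SjSS, beside -0.041 and -0.014 for all genes. No member was called in opposite directions in the 2 strains. In both, 13 rose and 12 fell, which is 13 of the 22 and 12 of the 12 in B6 and 13 of the 14 and 12 of the 13 in SjSS. For CpG too, the share of all genes called in both strains was not analysed here. The test of the difference between responses called 1 member higher and 4 lower, against 3.23% and 2.62% of all genes. Same-numbered control and CpG samples of B6 deviated together, those of SjSS less clearly, and with the replicate number as a block 10 members were called lower, the 4 and also Mvk (adjusted p = 0.0333), Fdft1 (0.0286), Sqle (0.0135), Lss (0.00382), Me1 (0.0117) and Scd2 (0.0278).

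**Figure D3:**
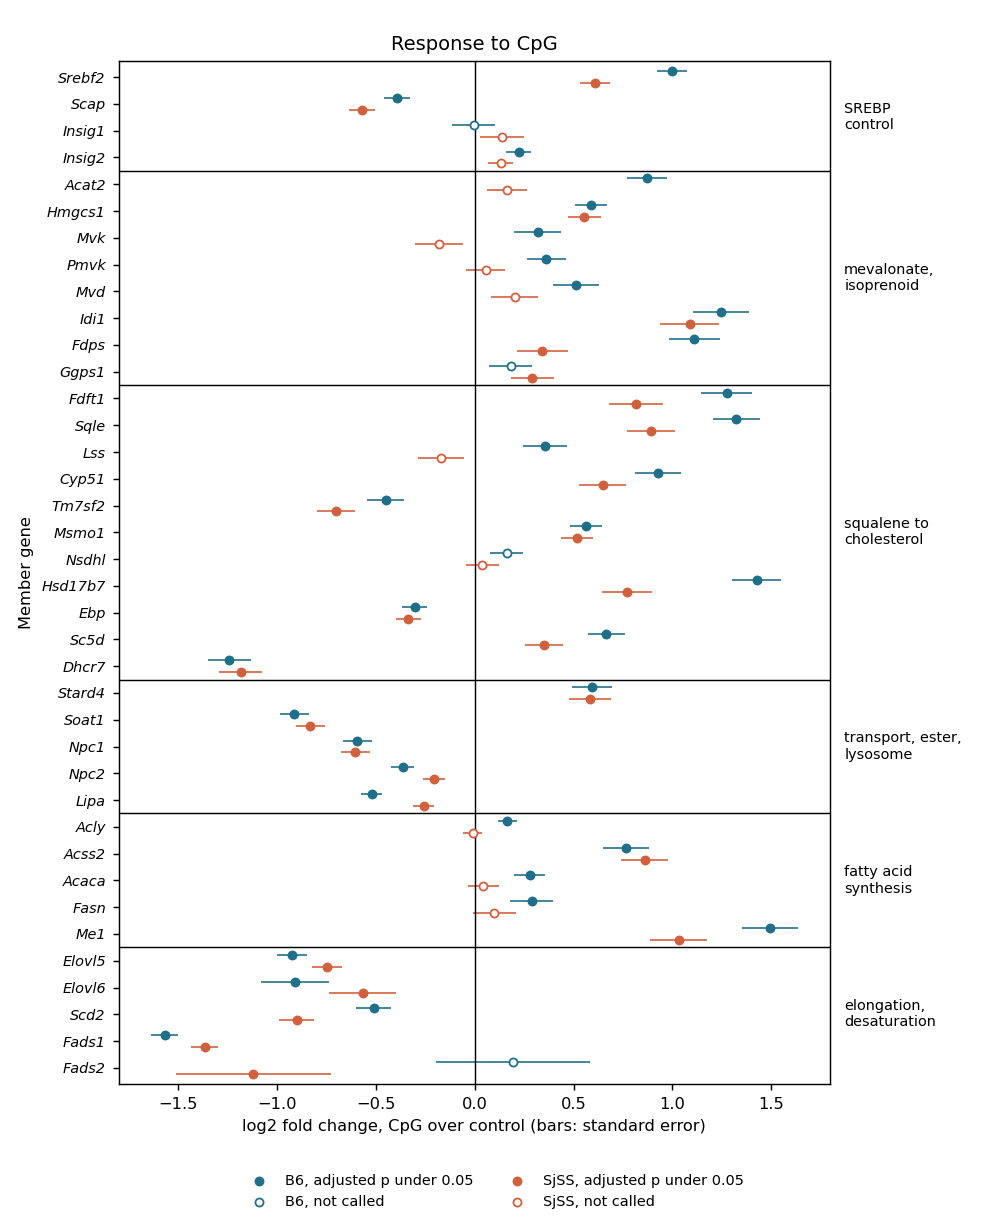
Log2 fold change of each member with CpG over control, drawn as for the AC response. The squalene arm has points on both sides of 0, from Hsd17b7 and Sqle on the right to Dhcr7 on the left, and all called elongation and desaturation members lie on the left.

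Srebf2 was higher with CpG in every sample of both strains, at 217, 213 and 196 CPM in B6 and 114, 136 and 140.4 CPM in SjSS, where the controls were at most 111 and 91.2 CPM. The rises were log2 0.996 ± 0.08, adjusted p = 1.25e-09 and 0.61 ± 0.08, adjusted p = 1.45e-06. Their difference, log2 -0.39 ± 0.11, adjusted p = 0.0372, was lost without any 1 of 8 libraries (B6 control 2 or 3, B6 CpG 1 or 2, SjSS control 2 or 3, SjSS CpG 1, B6 AC 3), with adjusted p from 0.0502 to 0.103. It was also lost with no filter on low counts (0.0523) and in a fit of only the compared groups (0.0883). Insig1 was not called in either strain, with 94.9, 95.4 and 92.8 CPM in B6 CpG and 75.7, 82.9 and 74.8 CPM in SjSS CpG. In SjSS it was called higher without SjSS control 2 (adjusted p = 0.0177). Scap fell, with changes of log2 -0.39 and -0.57. Insig2 rose by log2 0.22 in B6 and changed by 0.13 in SjSS (adjusted p = 0.084), where it was called higher without SjSS CpG 1 (0.0132).

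The mevalonate enzymes rose together in B6, 7 of 8, and 4 of 8 rose in SjSS. Idi1 was at 60.2, 47.98 and 50.5 CPM in B6 CpG and 21.8, 23.4 and 24.9 CPM in SjSS CpG, above all controls of each strain, with rises of log2 1.24 ± 0.14, adjusted p = 3.36e-07 and 1.09 ± 0.15, adjusted p = 4.58e-06. Hmgcs1 reached 107, 103 and 102 CPM in B6 and 68.5, 69.1 and 67.3 CPM in SjSS, with rises of log2 0.59 ± 0.08 and 0.55 ± 0.08. The test between strains called neither (adjusted p = 0.725 and 0.911). Fdps was at 39.4, 34.9 and 33.8 CPM in B6 CpG and 14.8, 19.5 and 20.1 CPM in SjSS CpG, with rises of log2 1.11 ± 0.13, adjusted p = 3.71e-07 and 0.34 ± 0.13, adjusted p = 0.033 that differed by -0.77 ± 0.18, adjusted p = 0.0163. Its SjSS call was lost without SjSS control 1 (0.157), SjSS CpG 2 (0.115) or SjSS CpG 3 (0.145). Acat2 rose by log2 0.87 ± 0.10 in B6 and changed by 0.16 ± 0.10 in SjSS, a difference of -0.71 ± 0.14, adjusted p = 0.00553. Reads of Acat2 can be shared with its paralog Acat3.

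Mvd, Pmvk and Mvk rose by log2 0.51, 0.36 and 0.32 in B6 and were not called in SjSS (0.20, 0.06 and -0.18), where the difference between strains was not called either, though for Mvk it was with the replicate block (adjusted p = 0.0333) and with DESeq2 (0.0439). With the block the rise of Mvd was also called in SjSS (adjusted p = 0.0257). The rise of Mvk was lost without B6 control 1 (0.0613) or 2 (0.0931) or B6 CpG 1 (0.071). Ggps1 rose by log2 0.29 ± 0.11 in SjSS, a call lost without SjSS control 3 (0.206) or any SjSS CpG sample (adjusted p from 0.0533 to 0.076). The call was also lost in a fit of only the compared groups (0.0649).

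In the squalene arm 7 of 11 members (63.6%) rose and 3 (27.3%) fell in B6, against 28.1% and 29.8% of all genes. In SjSS 6 (54.5%) rose and 3 (27.3%) fell, against 27.8% and 26.4%. The shares that fell were near those of all genes. Hsd17b7 was at 15.4, 13.6 and 11.6 CPM in B6 control and 41.8, 33.1 and 33.99 CPM in B6 CpG, a rise of log2 1.43 ± 0.12, adjusted p = 9.17e-09, and at 12.05, 11.9 and 9.57 CPM in SjSS control and 17.2, 19.6 and 20.2 CPM in SjSS CpG, a rise of 0.77 ± 0.13, adjusted p = 4.29e-05. Sqle was at 69.5, 62.5 and 56.2 CPM in B6 CpG and 27.4, 31.97 and 33.4 CPM in SjSS CpG, with rises of log2 1.32 ± 0.12, adjusted p = 1.10e-08 and 0.89 ± 0.12, adjusted p = 3.89e-06. CpG and control samples were apart for both genes in both strains. The rises of Hsd17b7 differed by log2 -0.66 ± 0.18, adjusted p = 0.0346, a call lost without any 1 of 7 libraries (B6 control 2 or 3, B6 CpG 1, SjSS control 1 or 2, SjSS CpG 1 or 2), with adjusted p from 0.0562 to 0.102. In a fit of only the compared groups that call was lost too (0.0594). Cyp51 rose by log2 0.93 ± 0.12 in B6 and 0.65 ± 0.12 in SjSS, Fdft1 by 1.27 ± 0.13 and 0.82 ± 0.14, Sc5d by 0.67 ± 0.09 and 0.35 ± 0.10, and Msmo1 by 0.56 ± 0.08 and 0.52 ± 0.08. Lss rose by log2 0.36 ± 0.11 in B6, a call lost without B6 CpG 1 (adjusted p = 0.0514). In SjSS, Lss was not called (log2 -0.17 ± 0.12, adjusted p = 0.232), but was called lower without SjSS control 1 (adjusted p = 0.0463). The difference between its responses was log2 -0.53 ± 0.16, adjusted p = 0.0635, and it was called with DESeq2 (adjusted p = 0.0228), with the replicate block (0.00382), and without SjSS control 1 (0.0189) or SjSS CpG 3 (0.0441).

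The 3 members that fell were Dhcr7, Tm7sf2 and Ebp. Dhcr7 was at 23.2, 25.6 and 24.4 CPM in B6 control and 9.94, 10.8 and 10.2 CPM in B6 CpG, and at 20.00, 19.1 and 21.2 CPM in SjSS control and 7.35, 10.8 and 8.45 CPM in SjSS CpG. It fell, with changes of log2 -1.24 ± 0.11, adjusted p = 8.23e-09 in B6 and -1.18 ± 0.11, adjusted p = 2.65e-08 in SjSS, with no overlap of samples in either. Tm7sf2 fell, with changes of log2 -0.45 ± 0.09 and -0.70 ± 0.10 and Ebp with -0.30 ± 0.06 and -0.34 ± 0.06. Nsdhl was not called (log2 0.16 and 0.04), though in B6 it was called higher without B6 control 1 (adjusted p = 0.0484) or B6 CpG 2 (0.0341).

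Stard4 rose with CpG, to 63.3, 59.8 and 58.3 CPM in B6 and 32.2, 33.1 and 37.02 CPM in SjSS (log2 0.59 ± 0.10 and 0.58 ± 0.11), while the other 4 members of its role fell in both strains. Soat1 was at 359.7, 403 and 353 CPM in B6 control and 183, 199.6 and 210.3 CPM in B6 CpG, and at 475, 417 and 397 CPM in SjSS control and 251, 243 and 230.0 CPM in SjSS CpG, with changes of log2 -0.91 ± 0.07 and -0.83 ± 0.07. Npc1 fell, with changes of log2 -0.59 and -0.60, Npc2 with -0.36 and -0.21, and Lipa with -0.52 and -0.26. The responses of Lipa differed by log2 0.26 ± 0.08, adjusted p = 0.0461. That call was lost without any 1 of 15 of the 18 libraries, all but B6 control 3, SjSS control 1 and SjSS CpG 3, with adjusted p from 0.0552 to 0.133. It was also lost with DESeq2 size factors within edgeR (0.0661) and in a fit of only the compared groups (0.0961).

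All 5 fatty acid synthesis genes rose with CpG in B6, and Acss2 and Me1 rose in SjSS. Me1 was at 15.5, 13.4 and 12.7 CPM in B6 control and 47.5, 35.7 and 33.8 CPM in B6 CpG, and at 9.93, 12.3 and 10.4 CPM in SjSS control and 21.9, 24.2 and 20.2 CPM in SjSS CpG, with rises of log2 1.49 ± 0.14, adjusted p = 2.48e-08 and 1.03 ± 0.14, adjusted p = 5.88e-06. Acss2 rose by log2 0.77 ± 0.12 and 0.86 ± 0.12. The rises of Acly (log2 0.17), Acaca (0.28) and Fasn (0.29) in B6 were small, and that of Fasn was lost without B6 control 2 (0.122) or B6 CpG 1 (0.141). The elongation and desaturation genes fell, 4 of 5 in B6 and 5 of 5 in SjSS. Fads1 was at 97.2, 101 and 95.3 CPM in B6 control and 32.5, 31.2 and 35.3 CPM in B6 CpG, a change of log2 -1.57 ± 0.07, adjusted p = 5.11e-13, and at 92.3, 91.2 and 93.8 CPM in SjSS control and 32.3, 39.8 and 35.6 CPM in SjSS CpG, a change of -1.36 ± 0.07, adjusted p = 4.76e-12. Elovl5 fell, with changes of log2 -0.92 ± 0.08 and -0.75 ± 0.08, Scd2 with -0.51 ± 0.09 and -0.90 ± 0.09, and Elovl6 with -0.91 ± 0.17 and -0.57 ± 0.17. The difference between the Scd2 responses was called with DESeq2 (log2 -0.42, adjusted p = 0.0287) and with the replicate block. The SjSS call of Elovl6 was lost without SjSS control 3 (0.0509) or SjSS CpG 1 (0.0512), and that of Fads2 (log2 -1.12 ± 0.39) without SjSS control 3 (0.105), SjSS CpG 1 (0.09) or SjSS CpG 3 (0.0739).

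**Figure D4:**
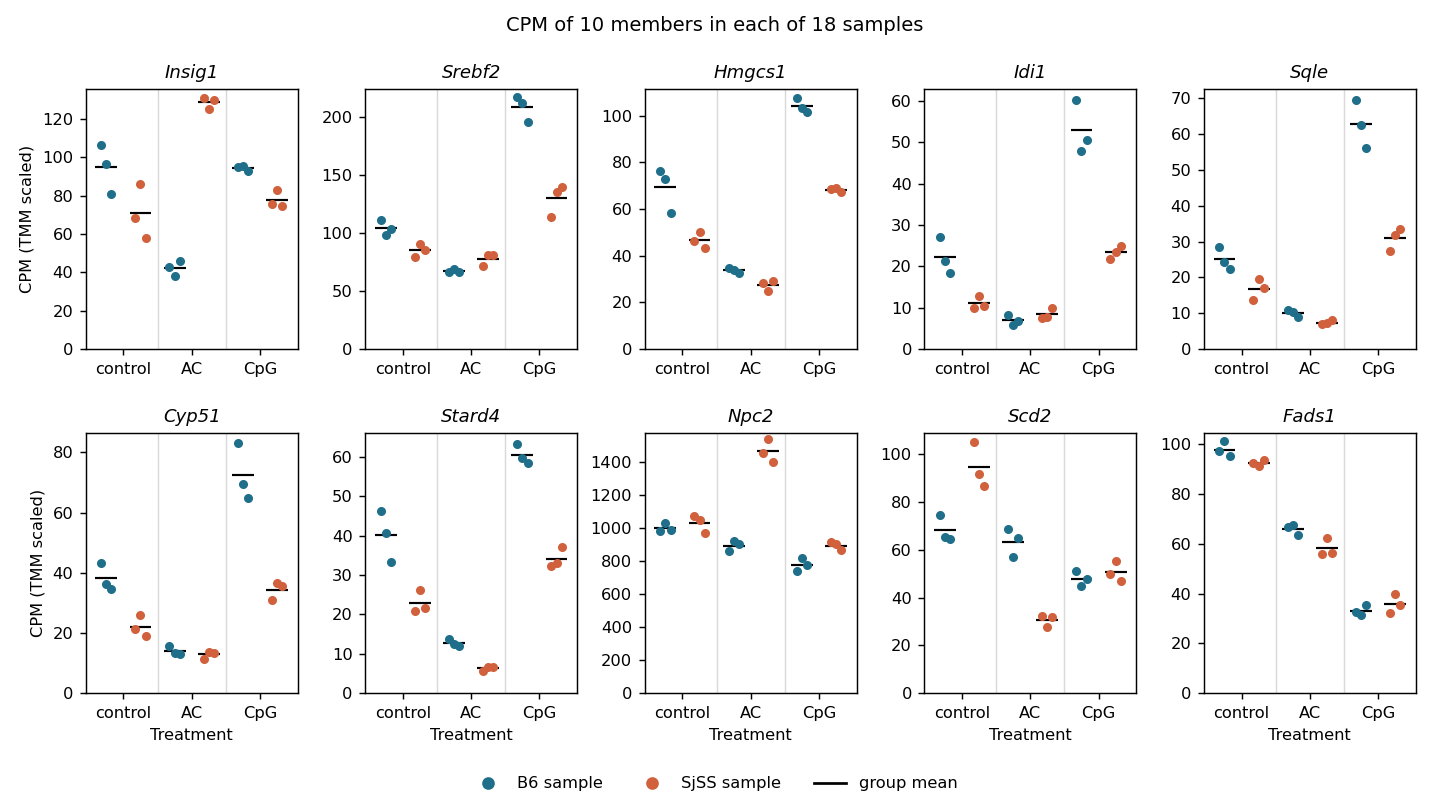
CPM of 10 members in each sample, with control, AC and CpG along each horizontal axis, B6 samples in blue, SjSS samples in orange and group means as black lines. Idi1, Sqle, Cyp51 and Stard4 are highest in B6 CpG, Insig1 and Npc2 in SjSS AC, and Scd2 in SjSS control.

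Without treatment, 11 of the 38 members were lower and 3 higher in SjSS than in B6 BMDMs, where 10.6% of all genes were called lower and 9.04% higher. The median member differed by -0.10, beside -0.009 for all genes. The lower members were Srebf2, Insig1, Hmgcs1, Idi1, Fdft1, Sqle, Cyp51, Msmo1, Nsdhl, Sc5d and Stard4. They were 2 of the 4 SREBP regulators, 2 of the 8 mevalonate and 6 of the 11 squalene members, and Stard4, 1 of the 5 in its role. Idi1 was at 22.3 CPM in B6 on average and 11.1 CPM in SjSS, and every SjSS sample was below every B6 sample (log2 -1.02 ± 0.15, adjusted p = 8.42e-05). Stard4 (log2 -0.81 ± 0.11, adjusted p = 2.74e-05), Cyp51 (-0.80 ± 0.12, adjusted p = 0.000121), Msmo1 (-0.59 ± 0.08, adjusted p = 4.72e-05) and Hmgcs1 (-0.57 ± 0.08, adjusted p = 7.50e-05) were separated in the same way.

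The differences of Sqle (log2 -0.59 ± 0.12), Fdft1 (-0.56 ± 0.13), Sc5d (-0.54 ± 0.10) and Nsdhl (-0.42 ± 0.08) were of like size. Dhcr7 was called lower only with DESeq2 (adjusted p = 0.048), in a fit of only the compared groups (0.0422), with the replicate block (0.0418), and without SjSS CpG 1 (0.0411) or 2 (0.0262). Insig1 overlapped between the strains (log2 -0.42 ± 0.11) and lost its call without B6 control 1 (0.0679) or SjSS control 3 (0.0709), and in a fit of only the compared groups (0.0699). Srebf2 (log2 -0.29 ± 0.08) lost its call without B6 control 1 (0.0588) or SjSS control 1 (0.0521). Scd2 was higher in all 3 SjSS controls than in any B6 control (log2 0.47 ± 0.09, adjusted p = 0.000992). The other 2 higher members were Acaca (log2 0.29 ± 0.08, lost without B6 control 1, adjusted p = 0.0827, or SjSS control 3, 0.0828) and Soat1 (0.21 ± 0.07, lost without any 1 of 13 libraries, adjusted p from 0.051 to 0.235). The call of Soat1 was also lost with no filter on low counts (0.0652), in a fit of only the compared groups (0.0784) and with the replicate block (0.0574). Soat1, Insig2 and Hsd17b7 are on chromosome 1, and Fdps, Pmvk and Elovl6 on chromosome 3. Whether any of them lies within the NOD intervals of the SjSS line was not analysed here.

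With ACs, 10 members (26.3%) were higher and 10 (26.3%) lower in SjSS than in B6. These shares were near the 24% and 25.5% of all genes, and the median difference was 0.03. All 4 SREBP regulators were called higher in SjSS AC. The differences of Srebf2, Scap and Insig2 were small, and their calls were lost without some single libraries, as given below. Insig1 differed most, by log2 1.60 ± 0.11, adjusted p = 8.01e-10, with the B6 AC and SjSS AC samples far apart. Npc2 (log2 0.71 ± 0.06, adjusted p = 5.32e-09), Acss2 (0.68 ± 0.12, adjusted p = 9.50e-05) and Acat2 (0.39 ± 0.11, adjusted p = 0.00557) were also higher, as were Lipa (0.29 ± 0.05) and Ebp (0.23 ± 0.06). Scd2 was the lowest against B6 (log2 -1.06 ± 0.09, adjusted p = 1.51e-08), followed by Stard4 (-0.996 ± 0.12, adjusted p = 1.32e-06). Fasn (log2 -0.46 ± 0.11), Sqle (-0.44 ± 0.13), Sc5d (-0.34 ± 0.10) and Hmgcs1 (-0.30 ± 0.08) were lower too.

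Several of these smaller differences did not hold in every fit with 1 library left out. The calls of Srebf2 (log2 0.21 ± 0.08), Scap (0.17 ± 0.07), Insig2 (0.16 ± 0.06), Tm7sf2 (0.30 ± 0.09), Lss (-0.36 ± 0.12), Me1 (-0.42 ± 0.14), Soat1 (-0.25 ± 0.07) and Fads1 (-0.18 ± 0.07) were each lost on leaving out one or more libraries. For Soat1 that library was SjSS AC 2 (adjusted p = 0.052), for Lss B6 AC 1 (0.0902) or SjSS AC 1 (0.0739), for Me1 the same pair (0.16 and 0.081), and for Tm7sf2 B6 AC 3 (0.0589) or SjSS AC 2 (0.0555). For Scap (B6 AC 1 or 3, SjSS AC 2 or 3) the adjusted p reached 0.134, for Fads1 (B6 AC 1 or 2, SjSS AC 1 or 3) 0.12, for Srebf2 (any B6 AC sample, SjSS AC 2 or 3) 0.112, and for Insig2 (12 libraries, some of them outside the 2 groups compared) 0.161. The call of Fads1 was also lost with DESeq2 (0.0606) and with its size factors within edgeR (0.0562). Those of Scap (0.0606) and Insig2 (0.084) were lost with no filter on low counts.

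**Figure D5:**
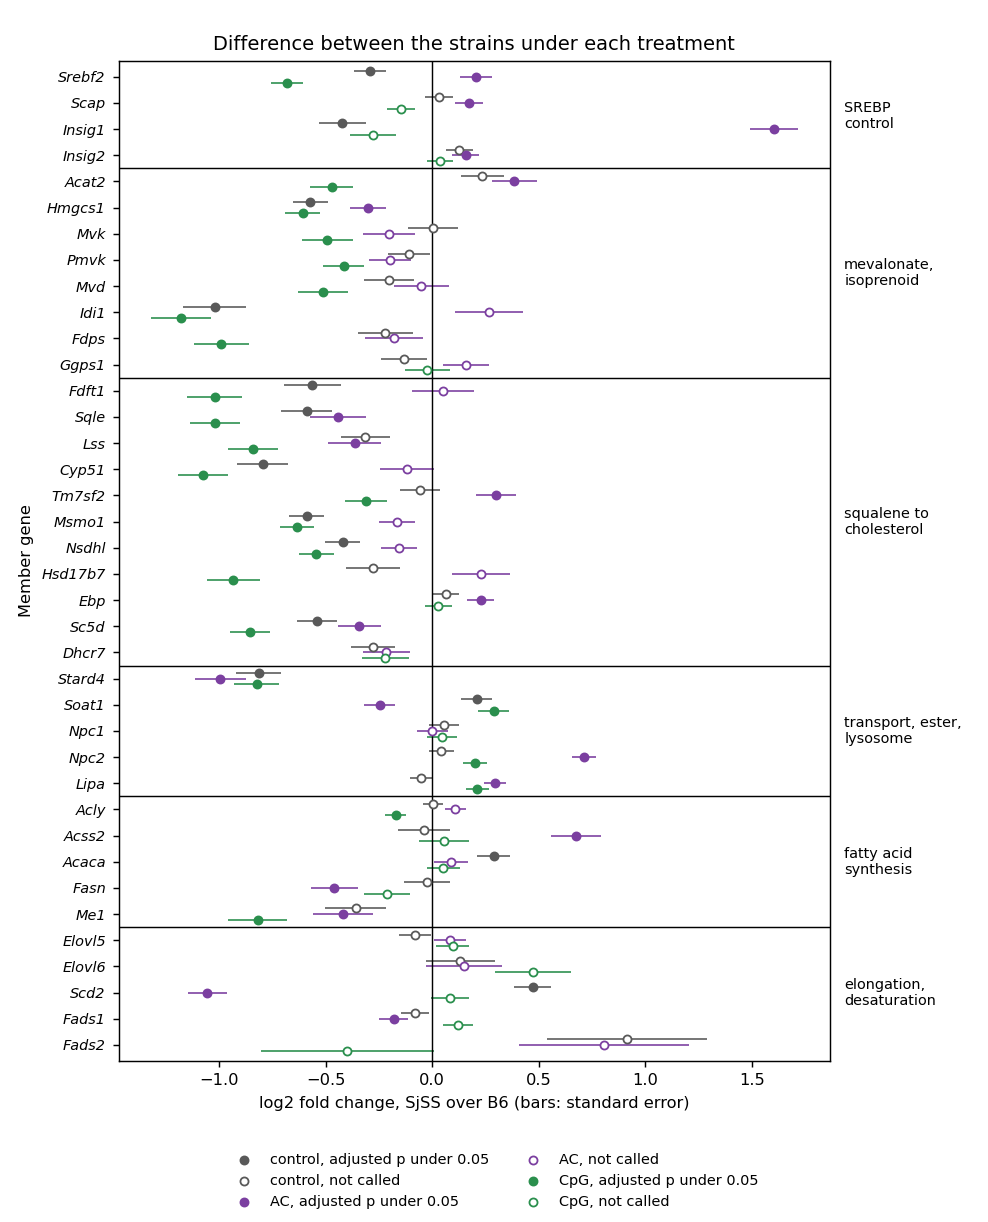
Log2 fold change of each member in SjSS over B6 without treatment (grey), with ACs (purple) and with CpG (green), filled where the adjusted p was under 0.05, with standard errors as bars. The green points of 7 of 8 mevalonate and 9 of 11 squalene members are called and lie left of 0, and the purple points of Insig1 and Scd2 lie apart from the other 2 colours.

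With CpG, 20 members were lower and 3 higher in SjSS than in B6, against 9.57% and 10.2% of all genes, and the median difference was -0.35 beside 0.008 for all genes. In the mevalonate arm 7 of 8 were lower and in the squalene arm 9 of 11. Idi1 (log2 -1.18 ± 0.14, adjusted p = 9.54e-06), Cyp51 (-1.08 ± 0.12, adjusted p = 3.29e-06), Sqle (-1.02 ± 0.12, adjusted p = 5.38e-06) and Fdft1 (-1.02 ± 0.13, adjusted p = 1.73e-05) had the largest differences, and the B6 and SjSS samples did not overlap for any of them. Fdps (log2 -0.99 ± 0.13), Hsd17b7 (-0.93 ± 0.12), Sc5d (-0.86 ± 0.09), Lss (-0.84 ± 0.12) and Stard4 (-0.83 ± 0.10) were close behind. Srebf2 (log2 -0.68 ± 0.08, adjusted p = 3.66e-06) and Me1 (-0.82 ± 0.14, adjusted p = 0.000297) were lower too. Of the 11 members lower without treatment, 10 (all but Insig1) were also among the 20 lower with CpG. The 2 comparisons share no sample, but same-numbered control and CpG samples of B6 deviated together, so they are not independent. How many of all genes were lower in both was not analysed here. Insig1 with CpG (log2 -0.28 ± 0.11, adjusted p = 0.0846) was called lower with DESeq2 (adjusted p = 0.0436), in a fit of only the compared groups (0.0136), and without SjSS control 2 (0.034) or 3 (0.041).

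The 3 members higher in SjSS CpG were Soat1 (log2 0.29 ± 0.07, adjusted p = 0.00838), Lipa (0.21 ± 0.05, adjusted p = 0.00836) and Npc2 (0.20 ± 0.06, adjusted p = 0.0174), genes of lysosomal release and storage. The call of Lipa was lost without SjSS CpG 2 (0.0548), and that of Npc2 without B6 CpG 1 (0.0832) or 3 (0.0651) or SjSS CpG 1 (0.069) or 2 (0.0556). None of the 5 elongation and desaturation members was called, though Elovl6 was called higher without SjSS CpG 1 (adjusted p = 0.0404). The lower calls of Acly (log2 -0.17 ± 0.05) and Tm7sf2 (-0.31 ± 0.10) were each lost on leaving out 1 of 3 libraries, B6 CpG 1 or 2 or SjSS CpG 1 for Acly (adjusted p from 0.0674 to 0.0859) and B6 CpG 2 or SjSS CpG 1 or 2 for Tm7sf2 (0.0622 to 0.127). In a fit of only the compared groups the calls of Lipa (0.0546), Npc2 (0.0617), Acly (0.0951) and Tm7sf2 (0.121) were lost too.

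Under the stricter rule in the study's methods, which also asks for a log2 fold change past 1.3, few members remained. A figure legend of the study words the cut as a fold change of 1.3, which was not applied here. In the AC response of B6, 4 members fell (Idi1, Cyp51, Sqle and Stard4) and 0 rose, against 2.04% and 2.43% of all genes. In that of SjSS, 2 fell (Stard4 and Scd2) and 0 rose, against 5.83% and 7.09%. With CpG in B6, 3 rose (Sqle, Hsd17b7 and Me1) and 1 fell (Fads1), against 5.86% and 6.88%, and in SjSS 0 rose and 1 fell (Fads1), against 4.81% and 4.45%. Between the strains, no member passed in either direction without treatment (1.3% of all genes higher, 0.716% lower) or with CpG (1.82% and 0.792%). With ACs, Insig1 alone was higher and 0 were lower (6.24% and 2.69%). The AC responses differed past this rule for Insig1 (higher) and Scd2 (lower), against 4.76% and 2.77%, and the CpG responses for 0 in either direction, against 0.285% and 0.329%. Wherever edgeR gave 0 here, it also gave 0 past that fold at an unadjusted p under 0.05, and DESeq2 gave 0, with the exception that 1 member had an unadjusted p under 0.05 past that fold in the lower direction of the CpG difference.

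Of 16 other genes of sterol and lipid handling given here beside the members, all passed the filter on low counts. With ACs 6 of the 16 (37.5%) fell and 2 (12.5%) rose in B6, where 18.3% and 20% of all genes did. In SjSS 4 (25%) fell and 4 (25%) rose, against 29.4% and 28.6%. With CpG 3 (18.75%) rose and 7 (43.75%) fell in B6, against 28.1% and 29.8%, and in SjSS 3 (18.75%) rose and 6 (37.5%) fell, against 27.8% and 26.4%.

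Ch25h, which makes the SREBP-suppressing 25-hydroxycholesterol, was at 0.544, 0.605 and 0.817 CPM in B6 control and 1.01, 0.624 and 1.49 CPM in B6 AC, and at 0.184, 0.355 and 0.0725 CPM in SjSS control and 15.9, 23.8 and 21.4 CPM in SjSS AC. It rose with ACs in SjSS (log2 6.77 ± 0.41, adjusted p = 4.38e-11) and was not called in B6 (0.65 ± 0.39, adjusted p = 0.208), a difference of 6.12 ± 0.60, adjusted p = 1.88e-07. With CpG it rose in both (log2 2.83 ± 0.34 in B6 and 3.34 ± 0.47 in SjSS). It was lower in SjSS without treatment (log2 -1.82 ± 0.54) and with CpG (-1.31 ± 0.31) and higher with ACs (4.30 ± 0.32). Abcg1, which exports cholesterol, rose with ACs in B6 (log2 1.23 ± 0.13, adjusted p = 3.41e-07) and in SjSS (1.42 ± 0.13, adjusted p = 1.21e-08), and the responses were not called different (0.19 ± 0.18, adjusted p = 0.435). With CpG it fell in B6 (log2 -1.45 ± 0.13, adjusted p = 1.28e-08) and less in SjSS (-0.45 ± 0.13, adjusted p = 0.00501), a difference of 0.997 ± 0.18, adjusted p = 0.00251. Abcg1 was higher in SjSS than in B6 without treatment (log2 0.61 ± 0.13), with ACs (0.80 ± 0.12) and with CpG (1.61 ± 0.13, adjusted p = 7.91e-08).

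Among the genes that CpG lowered past a log2 change of 1.3, Cyp27a1, the sterol 27-hydroxylase, fell, with changes of -2.54 ± 0.16 in B6 and -1.97 ± 0.16 in SjSS, and Nceh1, a cholesteryl ester hydrolase, with -2.10 ± 0.11 and -1.34 ± 0.11. Mylip, a ubiquitin ligase induced by sterols, fell in B6 (log2 -1.64 ± 0.14) and less in SjSS (-0.60 ± 0.13, adjusted p = 0.000861), a difference of 1.05 ± 0.19, adjusted p = 0.00261. Acacb and Elovl7 with ACs, and Scd1 with CpG, were called higher in SjSS than in B6 past that size, but from group means of at most 1.22 CPM. Elovl7 was also called lower with ACs in B6, from 0.176, 0.167 and 0.355 CPM in control to 0.0794, 0.0189 and 0.0223 CPM, a level of few counts.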

How the data were processed

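Bulk RNA-seq of 18 mouse BMDM samples in 6 groups was analysed from 1 deposited table of estimated counts per gene. Mapping by the authors used STAR and the mm10 mouse genome, and the estimated counts came from the expectation-maximization quantifier of Partek Flow, so reads shared between genes were split (41.1% of values were not whole to within 1e-06), and the values are not normalized. Strandedness and annotation release were not given in the sources used here, and reads of overlapping genes on opposite strands therefore cannot be told apart. Versions are those of the tools used here, R 4.3.3, edgeR 4.0.16, DESeq2 1.42.0 and Python 3.11.15.

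Counts were rounded, filtered with filterByExpr (15789 of 20615 genes kept) and scaled by TMM, and 1 mean per group was fitted over all 18 samples with edgeR's quasi-likelihood test. Adjusted p is Benjamini-Hochberg over all genes tested, calls are at 0.05, and standard errors are the fold change over the root of F. The 9 comparisons were the AC and CpG responses in each strain, the strain difference under each treatment, and the difference of responses. CPM use the TMM-scaled totals, and exon lengths come from GENCODE M21. The code was tested on simulated counts. The strict sterol element, NF-Y and Sp1 letters were searched in RefSeq promoters.

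All 38 members were named by rule, and other pathway genes where called past a log2 fold change of 1.3. Some genes of that list are not reported here. The members and the lists, including the cell type markers, were chosen with earlier results of these data known. The study gives 3 mice per strain, and whether samples with one number share a mouse is not stated, so p-values measure the spread between these samples. The check of pairing correlated the deviations of same-numbered samples from their group means across genes. For control and CpG in B6 these were 0.26, 0.26 and 0.14, all over 0.1, so numbers pair there by the data, and the replicate block changed no call of the B6 CpG response. In no other comparison were all 3 over 0.1. No 2 replicates agreed within sampling noise. Alternatives tried were DESeq2, its size factors, other filters on low counts, only the groups compared, the replicate block, the stricter fold rule, and each library left out.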

Additional observations from a re-analysis of the deposited data

Results flagged for a closer look

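Differences between the strains in response were singled out by a test of the difference itself, the AC response and the CpG response in SjSS minus that in B6 (edgeR, adjusted p under 0.05). With ACs these differences of response were positive for Insig1 (2.02), Idi1 (1.29), Acss2 (0.72), Cyp51 (0.68), Npc2 (0.67), Fdft1 (0.61), Hsd17b7 (0.51), Srebf2 (0.50), Msmo1 (0.42), Tm7sf2 (0.36) and Lipa (0.34), on the log2 scale. For Idi1, Cyp51, Fdft1, Hsd17b7 and Msmo1, which fell in both strains, this was a smaller fall in SjSS and not a called higher level. The differences were negative for Scd2 (log2 -1.53), Soat1 (-0.45) and Fasn (-0.44). With CpG the log2 differences of response were negative for Fdps (-0.77), Acat2 (-0.71), Hsd17b7 (-0.66) and Srebf2 (-0.39) and positive for Lipa (0.26). No group of 3 samples was tested for a sample apart from the others.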

How the results depend on the processing

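Of 8207 values of single members under an alternative, 7983 kept direction and side of the threshold, 180 lost and 44 gained a call, and 0 reversed. The counts of calls with ACs and CpG within each strain, without treatment between strains, and in the AC difference stayed within 1.5 times of those given, apart from the stricter fold rule. That rule gave, higher and lower, 0 and 4 (ACs in B6), 0 and 2 (ACs in SjSS), 3 and 1 (CpG in B6), 0 and 1 (CpG in SjSS), 0 and 0 (strains, untreated), 1 and 0 (strains, ACs), 0 and 0 (strains, CpG), 1 and 1 (AC difference), and 0 and 0 (CpG difference), since it is the narrower rule by construction. The other changes were in small counts. Leaving out 1 library gave 6 to 11 members higher in SjSS with ACs (6 without B6 AC 3 or SjSS AC 2), and 1 to 3 higher with CpG (1 without SjSS CpG 2), where a fit of only those groups also gave 1. In the CpG difference between strains, it gave 0 to 1 higher and 2 to 5 lower (2 without B6 control 2 or 3, SjSS control 2, B6 CpG 1 or SjSS CpG 1). DESeq2 size factors within edgeR gave 0 higher there, only the compared groups gave 0 higher and 2 lower, and the DESeq2 Wald test gave 7 lower. The replicate block gave 10 lower in place of 4, the numbers pairing only in B6 by the check. The block changed no other count by over 1.5 times. The cause of these changes was not tested.

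Of the members, the lowest expressed, Fads2 and Elovl6, had the widest standard errors. Exonic bases of Scap, Hmgcs1, Fdps, Fdft1 and Tm7sf2 overlap other genes by 12.1% to 26.7%, and Scd2 and Acat2 have the paralogs Scd1 and Acat3, so their counts can depend on how shared reads were split. The labels give 3 h after the wash and the study's methods another length. RNA of the added thymocytes was not separated from that of BMDMs.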
